A study of Arabidopsis thaliana with 12 samples.

Results

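The low-sulfate response of Arabidopsis roots was compared between 2 slim1 mutant lines and their parental line, P, on all 12 of the 12 arrays of the series. For every probe set the quantity of interest was a difference of responses: the mean of the S15 minus S1500 log2 differences of slim1-1 and slim1-2, minus the same log2 difference in P. A negative value means that low sulfate raised the signal less, or lowered it more, in the mutants than in P. Of 22746 probe sets that are not hybridization controls, 13647 passed a filter on low signals and were tested, and 7332 of these (53.7%) carry the name of exactly 1 gene here.

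P is Arabidopsis thaliana cv. Columbia carrying a T-DNA in which GFP is driven by the promoter of SULTR1;2, a sulfate transporter gene. The lines slim1-1 and slim1-2 were isolated from P as mutants whose GFP signal rises less under sulfur limitation, so all 3 lines carry the same reporter, and each mutant allele is represented by 1 line. Seedlings of all groups were grown for 10 days on vertical agar plates to which 1500 µM magnesium sulfate (S1500) or 15 µM (S15) had been added, with some residual sulfate from the agar in both. Root RNA from 2 biological replicates of each of the 6 line-medium groups was hybridized to 1 Affymetrix array each. The labels do not say whether replicates came from separate plates, so the p-values measure the spread between these arrays.

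SLIM1, also called EIL3, belongs to the EIN3-like transcription factors. In Arabidopsis roots it is known as a central regulator of the sulfur deficiency response, in which sulfate uptake rises and the synthesis of glucosinolates, sulfur-rich defence compounds, declines while their breakdown increases. The comparison asks which responses to low sulfate need SLIM1 and which proceed in its mutants. The genes for SLIM1 itself, for SULTR1;1, SULTR1;2 and SULTR4;2, for APR1, APR2 and APR3, and for LSU1, LSU2 and SDI1 have no named probe set here and are not analysed here, so the mutation was not checked on the arrays.

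Median signals of 11 arrays were between 65.65 and 110.8, and slim1-2-S15 replicate 2 stood apart with a median of 174.95. After quantile normalization correlations of log2 signals across probe sets ran from 0.9823 to 0.9882 within groups and from 0.9637 to 0.9872 between groups. Between 71.8% and 84.6% of probe sets per array exceeded the brightest of 27 Bacillus control probe sets, which served as the background bound. Without normalization between arrays, the median over all tested probe sets moved by 0.26 (log2) for the P response and by 0.32 for the mean slim1 response. For the difference of responses it moved by 0.057, which averages -0.24 for slim1-1 against P and 0.35 for slim1-2 against P. With slim1-2-S15 replicate 2 also left out, the shift of the difference of responses was -0.18. All values below are relative to the normalized arrays.

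The mutants responded differently from P at 128 probe sets, 0.938% of those tested (limma, adjusted p under 0.05). The difference was negative at 89 (0.652%) and positive at 39 (0.286%). Its size among the 128 ran from 0.438 to 4.29 (log2) with a median of 0.959, and 56 of them differed by at least 1, a doubling. The count rests on the processing and on single arrays: it was 11 without normalization between arrays, 35 when slim1-2-S15 replicate 2 was also left out, 58 without P-S1500 replicate 1 and 64 without P-S15 replicate 2.

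In P, low sulfate changed 524 probe sets (3.84%), of which 243 rose (1.78%) and 281 fell (2.06%). The mean response of the slim1 lines, which shares no array with the P response, was called at 751 probe sets (5.5%), with 319 higher (2.34%) and 432 lower (3.17%); it averages 8 arrays against 4 in P and so has a smaller standard error. Of the 243 probe sets that rose in P, 100 (41.2%) also rose in the slim1 mean, and 41 rose in each slim1 line tested alone. Of the 281 that fell in P, 182 (64.8%) also fell in the slim1 mean and 98 in each line alone. The median response of the 243 was 0.685 (log2) in P and 0.23 in the mutants, and that of the 281 was -0.646 and -0.417. The P values chose these probe sets, so the smaller medians in the mutants are a description and carry no test. Without normalization between arrays 65 responses were called in P and 57 in the slim1 mean. The P call count was 270 without P-S1500 replicate 1; it was 337 and 272 when P-S15 replicates 1 and 2 were left out in turn.

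Each P response was then placed by testing the slim1 mean against 50% of the P response, both on the log2 scale. This contrast was called at 143 of all tested probe sets (1.05%). The P arrays that chose the P responses also enter this contrast, and choosing large P estimates favours placement under 50%. The counts that follow are therefore a description of the chosen responses. Of the 524 P responses, 33 were kept to less than 50% in the mutants, 46 were kept to more than 50%, and 445 could not be placed on either side. The former lay mostly among inductions, with 30 of 243 inductions (12.3%) and 3 of 281 repressions (1.07%) kept under 50%. The reverse held for responses kept over 50%, which comprised 14 inductions (5.76%) and 32 repressions (11.4%). Without normalization between arrays 0 responses were placed under 50% and 5 over it, all 5 of them inductions, and the count over 50% was between 25 and 28 without any 1 of the 4 P arrays. Without P-S1500 replicate 2 the responses kept under 50% comprised 25 inductions and 10 repressions.

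**Figure D1:**
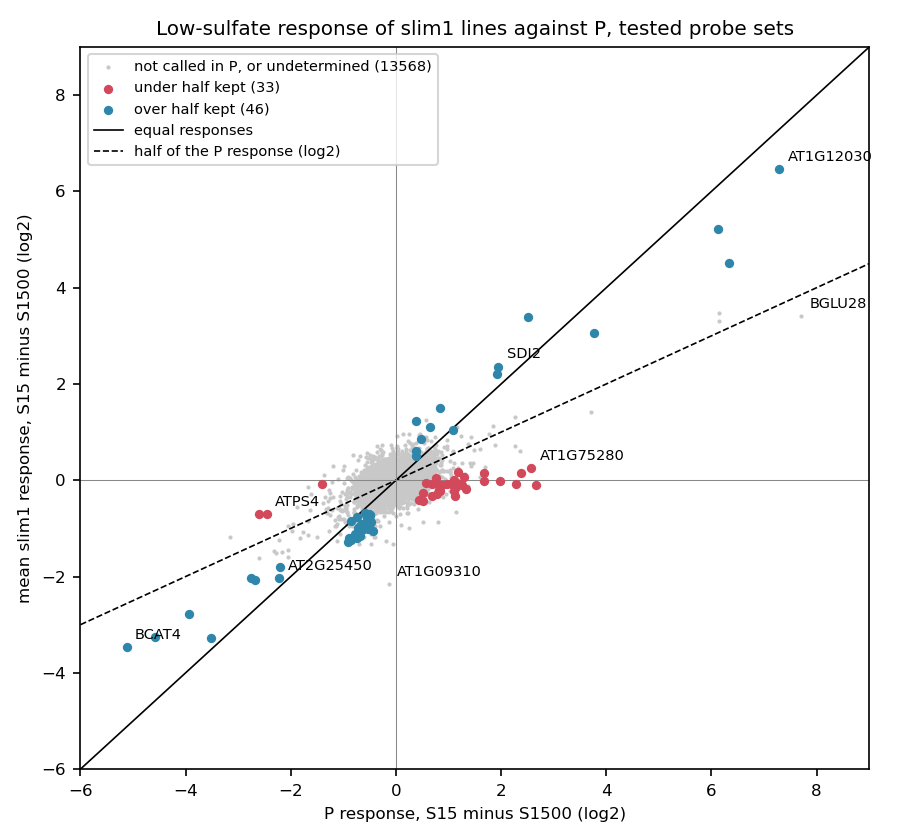
Each point is 1 of the 13647 tested probe sets, with the S15 minus S1500 response of P (log2) on the x axis and the mean response of slim1-1 and slim1-2 (log2) on the y axis; the solid line marks equal responses and the dashed line 50% of the P response. The 33 responses kept under 50% lie close to the horizontal zero line, at positive P responses for 30 of them, and the 46 kept over 50% lie beyond the dashed line, away from 0.

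Among the named inductions that the mutants kept under 50%, the largest was AT1G75280 (chromosome 1), which encodes an isoflavone reductase-like protein. Its log2 signal in P was 9.50 and 9.48 on S1500 and 12.08 and 12.05 on S15. In slim1-1 it was 9.57 and 9.65 on S1500 and 9.92 and 9.83 on S15, and in slim1-2 it was 9.53 and 9.64 against 9.89 and 9.77. The P arrays on S15 stood alone, more than 2 log2 units above every other array. The P response of 2.57 ± 0.0794 (SE of the fit, here and below) met responses of 0.26 in slim1-1 and 0.25 in slim1-2, and the difference was -2.32 (95% interval -2.53 to -2.11; limma adjusted p = 1.87e-08). The mutants thus kept 9.89% of the P response on the log2 scale, and their own mean response was called (adjusted p = 0.0142).

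GTR1 (AT3G47960, chromosome 3), a transporter that moves glucosinolates across membranes, rose in P and had no called response in the mutants. Its log2 signal was 7.71 and 7.63 in P on S1500 and 8.76 and 8.81 on S15. The 8 mutant arrays lay between 7.53 and 7.83 whatever the medium, and only the P arrays on S15 were high. The P response was 1.11 ± 0.11, the mean slim1 response was 0.01 ± 0.0781 (adjusted p = 0.968), and the difference was -1.10 (95% interval -1.39 to -0.81; adjusted p = 0.000649). On S1500 the mutants and P differed by -0.04 ± 0.0956 (adjusted p = 0.913).

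AT4G25790, of the cysteine-rich secretory (CAP) protein family, and AT5G40670, of the PQ-loop membrane protein family, rose in P by 1.16 ± 0.123 and 1.18 ± 0.0891. AT4G25790 read 7.33 and 7.29 in P on S1500 and 8.38 and 8.57 on S15. In slim1-1 its 4 arrays lay between 7.01 and 7.24, and in slim1-2 between 7.84 and 8.04. The mutants therefore lay at separate levels, slim1-2 above slim1-1, with responses of -0.06 in slim1-1 and -0.04 in slim1-2, and the difference of responses was -1.21 (adjusted p = 0.000758). AT5G40670 read 9.34 and 9.27 in P on S1500 and 10.48 and 10.49 on S15, and its 8 mutant arrays lay between 8.58 and 8.92. All mutant arrays were below all P arrays, on S1500 as well, where the mutants minus P gave -0.64 ± 0.0771 (adjusted p = 0.000991). The difference of responses of AT5G40670 was -1.0 (adjusted p = 0.000262).

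MGL (AT1G64660, chromosome 1), methionine gamma-lyase, which breaks down methionine, behaved differently. In P its log2 signal was 6.77 and 7.05 on S1500 and 7.96 and 8.14 on S15. The slim1-1 arrays read 7.66 and 7.71 on S1500 and 7.73 and 7.81 on S15, and the slim1-2 arrays 7.74 and 7.92 against 7.62 and 7.34. The mutants were already high on S1500, by 0.85 ± 0.118 over P (adjusted p = 0.00248), and on S15 lay at -0.42 ± 0.118 relative to P (adjusted p = 0.0875). The difference of responses of MGL was -1.27 (95% interval -1.63 to -0.91; adjusted p = 0.00111), and most of its size came from the S1500 arrays.

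The other named inductions kept under 50% were AT3G49960, a class III peroxidase, AT4G33960, and AT5G36270, which RefSeq lists as a transcribed pseudogene. AT3G49960 rose by 1.68 ± 0.175 in P, against 0.24 in slim1-1 and 0.04 in slim1-2. Its slim1-2 arrays lay between 8.26 and 8.52 on both media, above the P arrays on S1500 (6.91 and 7.58) and below those on S15 (8.82 and 9.02), while those of slim1-1 lay between 7.26 and 7.62. AT4G33960 rose by 1.34 ± 0.115 in P and had a difference of -1.52 (adjusted p = 4.65e-05). Its mutant arrays on S1500 exceeded P by 0.57 ± 0.0994 (adjusted p = 0.0136). AT5G36270 had a difference of -1.32 (adjusted p = 0.0077). The 14 inductions kept under 50% that carry a gene name include the 8 described. Placement under 50% held for GTR1, MGL, AT1G75280, AT4G25790 and AT4G33960 in 20 of 21 alternatives, all but the arrays without normalization, for AT5G40670 in 14 of 21, for AT3G49960 in 8 of 21 and for AT5G36270 in 9 of 20.

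**Figure D2:**
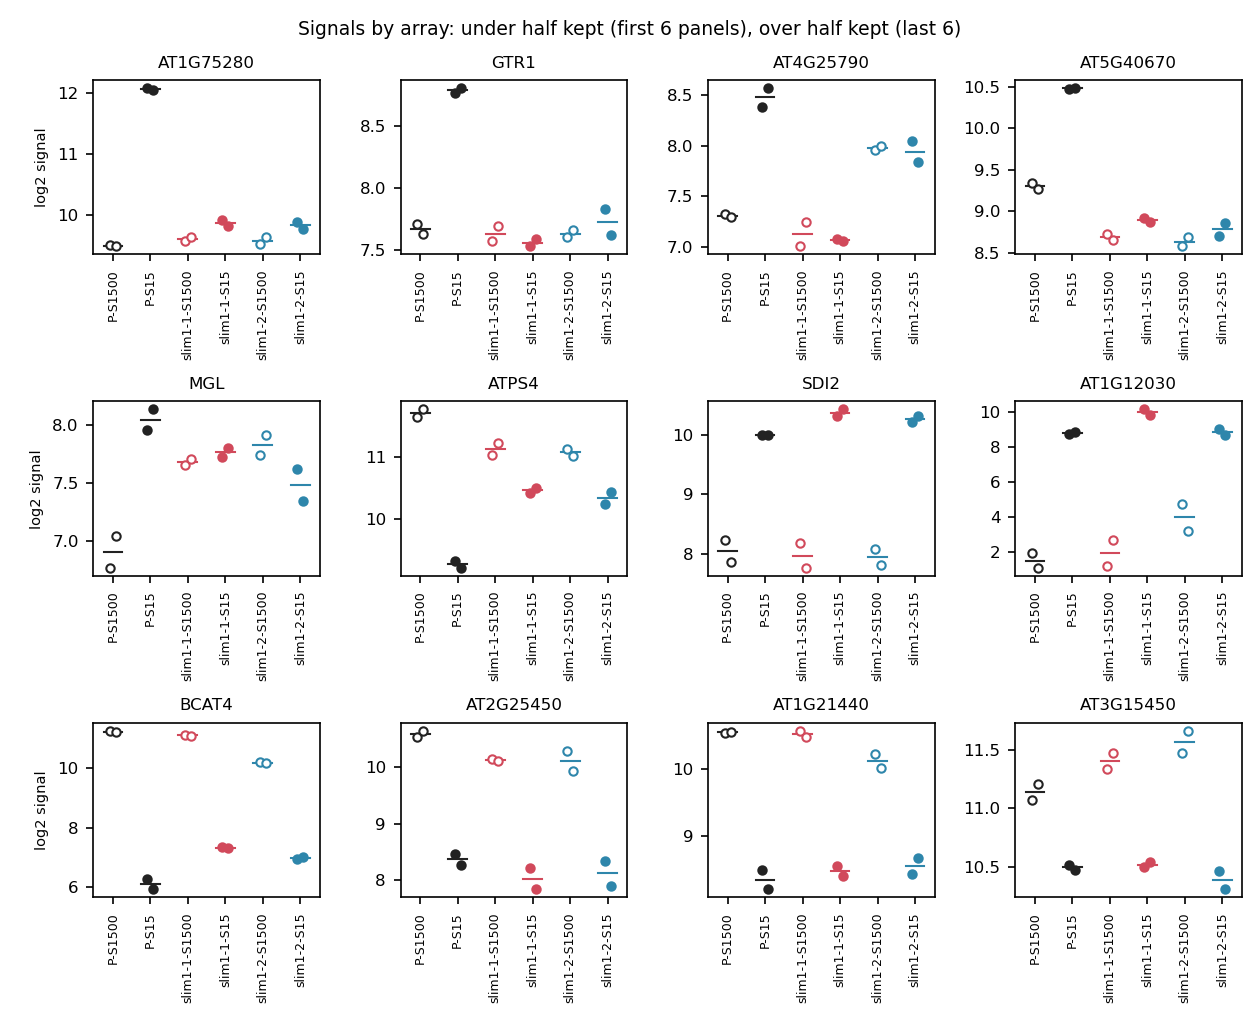
Each panel gives the log2 signal (y axis, own scale per panel) of 1 gene on all 12 arrays by group (x axis), with open circles for S1500, filled circles for S15 and a line at the mean of each pair. For AT1G75280 and GTR1 only the P arrays on S15 are high, for ATPS4 the P arrays on S15 are lowest with mutants between, and for SDI2 the S15 arrays of all lines exceed the S1500 arrays.

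Further inductions were smaller in the mutants than in P without being placed on either side of 50%. CHX16 (AT1G64170), a cation/proton exchanger, rose by 1.69 ± 0.186 in P and read 0.32 in slim1-1 and 0.23 in slim1-2 (difference -1.41, adjusted p = 0.00639). AT1G66760, a MATE family efflux transporter, rose by 1.59 ± 0.266 in P against a mean slim1 response of 0.06 ± 0.188 (difference -1.53, adjusted p = 0.0419). AT3G01730 gave a difference of -1.28 (adjusted p = 0.0459). The calls of AT1G66760 and AT3G01730 were lost when any of 8 and 9 single arrays was left out, P arrays among them. AT3G01730 failed the filter on low signals without P-S15 replicate 1 and without P-S15 replicate 2, the group where it was highest. Without the filter its call was lost.

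The root hair expansins EXPA7 and EXPA18, which loosen cell walls as root hairs grow, rose in P and had no called response in the mutants. EXPA18 (AT1G62980) read 7.76 and 7.70 in P on S1500 and 8.53 and 8.49 on S15. Its slim1-1 arrays lay between 7.55 and 7.66, and its slim1-2 arrays between 8.15 and 8.45, on either medium. The P response was 0.78 ± 0.116, the mean slim1 response -0.03 ± 0.0822, and the difference -0.81 (adjusted p = 0.0118). EXPA7 (AT1G12560) had a P response of 0.76 ± 0.148 and a difference of -0.86 (adjusted p = 0.0418). Of 7 root hair marker genes listed, these 2 are named here. Of all tested probe sets 1.78% rose in P and 0.652% had a called negative difference, as these 2 did. Their summed signals were 433.5 to 510.4 in P on S1500, 786.3 to 810.5 in P on S15, 408.6 to 448.2 in slim1-1 and 581.8 to 694.8 in slim1-2. In whole roots, fewer cells of a type and less RNA per cell cannot be told apart. Of 14 markers of inner root tissue and the root tip only SGN3 is named here; its signals were 338.1 to 450.8 over all arrays and none of its contrasts between media was called. Without any 1 of the 4 P arrays the difference of EXPA18 was no longer called. That of EXPA7 was lost on leaving out any of 9 single arrays, and without the filter or the intensity trend.

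Sulfate assimilation was represented by ATPS3, ATPS4 and SIR, and the 3 genes went separate ways. ATP sulfurylases such as ATPS3 and ATPS4 activate sulfate, and SIR, sulfite reductase, makes sulfide. ATPS4 (AT5G43780, chromosome 5) was the only named repression kept under 50%. Its log2 signal in P was 11.65 and 11.77 on S1500 and 9.31 and 9.20 on S15. It read 11.03 and 11.23 in slim1-1 and 11.13 and 11.02 in slim1-2 on S1500, and 10.41 and 10.50 in slim1-1 and 10.23 and 10.43 in slim1-2 on S15. The mutant arrays lay between the P extremes on both media, with the mutants minus P at -0.61 ± 0.081 on S1500 (adjusted p = 0.00199) and 1.14 ± 0.081 on S15 (adjusted p = 1.72e-06). The P response of -2.46 ± 0.0936 met -0.67 in slim1-1 and -0.74 in slim1-2, so 28.7% was kept, and the difference was 1.75 (95% interval 1.51 to 2.00; adjusted p = 9.82e-07).

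ATPS3 (AT4G14680) rose in P by 0.75 ± 0.141 (adjusted p = 0.0061), from 7.31 and 7.01 to 7.97 and 7.86. The 8 mutant arrays lay between 6.75 and 7.28, below both P arrays on S15. The difference of responses, -0.74 (95% interval -1.11 to -0.37), did not pass the threshold (adjusted p = 0.0707), although on S15 the mutants were below P by -0.91 ± 0.122 (adjusted p = 0.000721). SIR (AT5G04590) fell in every line: its response was -0.50 ± 0.114 in P (adjusted p = 0.0237) and -0.55 ± 0.0804 in the mutant mean (adjusted p = 0.000653), with a difference of -0.06 (95% interval -0.36 to 0.24). In this list of 12, 3 genes are named and tested here: 1 rose and 2 fell in P (1.78% and 2.06% of all tested probe sets), 2 fell in the mutants (3.17%), and 1 had a positive difference of responses (0.286%). The median difference was -0.06 against 0.0024 over all tested probe sets.

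The largest difference of all was in a response that the mutants kept in part. BGLU28 (AT2G44460, chromosome 2), a beta-glucosidase known for breaking down glucosinolates under sulfur deficiency, read 3.93 and 3.27 in P on S1500, both below the control bound of their array, and 11.31 and 11.29 on S15. In slim1-1 it went from 4.35 and 4.56 to 7.63 and 7.49, and in slim1-2 from 4.37 and 4.05 to 7.85 and 7.99. All 3 lines rose, and the mutants on S15 stayed more than 3 log2 units below P. The induction in P was at least 177-fold (adjusted p = 7.14e-12), counted against the background bound. The responses were 3.10 ± 0.204 in slim1-1 and 3.71 ± 0.204 in slim1-2, and the difference was -4.29 (95% interval -4.83 to -3.76; adjusted p = 3.58e-07), or -4.07 with low signals raised to the control bound. The test against 50% of the P response was not called (adjusted p = 0.368), but with 16 or 64 added to the signals BGLU28 was placed under 50%.

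AT4G31330 rose in P by 3.70 ± 0.279, from 6.85 and 6.70 to 10.44 and 10.52, and by 1.41 in slim1-1 and in slim1-2 (difference -2.29, adjusted p = 0.0033). Its slim1-1 arrays on S1500 lay apart, at 7.05 and 5.73, and without the lower one, replicate 2, the difference was -2.62 and the response was placed under 50%. The unnamed probe set 255105_at rose by 6.14 in P, 3.40 in slim1-1 and 3.22 in slim1-2, and the unnamed 261428_at rose by 2.67 in P and read -0.07 and -0.14 in the mutants. Both had called differences, -2.84 (adjusted p = 5.14e-06) and -2.78 (adjusted p = 4.92e-07).

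Of 24 genes listed for aliphatic glucosinolate synthesis, BCAT4, GSTU20 and UGT74C1 are named and were tested. These 3 fell in P (2.06% of all tested probe sets did), fell in the mutant mean (3.17%) and had a called positive difference (0.286%), with medians of -2.22 in P, -1.25 in the mutants and 0.97 for the difference, against 0.0035, 0.0078 and 0.0024 over all tested probe sets. The list may lack genes of the pathway, so the 3 do not stand for all of it. BCAT4 (AT3G19710, chromosome 3) starts the chain elongation of methionine for aliphatic glucosinolates. It read 11.24 and 11.19 in P on S1500 and 6.27 and 5.93 on S15. In slim1-1 it went from 11.11 and 11.07 to 7.36 and 7.31, and in slim1-2 from 10.20 and 10.15 to 6.97 and 7.01. The S15 arrays of the mutants were all above those of P, and on S1500 slim1-2 was below both other lines. The P response of -5.12 ± 0.106 was kept to 67.9%, which placed it over 50%, and the difference was still called (1.64, 95% interval 1.36 to 1.92; adjusted p = 8.1e-06).

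UGT74C1 (AT2G31790), a glucosyltransferase of glucosinolate synthesis, fell by 2.22 ± 0.148 (log2) in P and responded by -1.49 in slim1-1 and -1.0 in slim1-2, with a difference of 0.97 (adjusted p = 0.0191); taken alone, slim1-1 differed from P by 0.73 (adjusted p = 0.306) and slim1-2 by 1.21 (adjusted p = 0.0102). GSTU20 (AT1G78370), a tau class glutathione S-transferase, responded by -1.97 ± 0.116 in P, -1.14 in slim1-1 and -0.96 in slim1-2 (difference 0.92, adjusted p = 0.00431). UGT74B1 (AT1G24100), which glucosylates the thiohydroximate step shared by aliphatic and indolic glucosinolates, was the only gene named here of 14 in its list. It responded by -0.93 ± 0.114 in P, -0.63 in slim1-1 and 0.04 in slim1-2, with a difference of 0.64 (adjusted p = 0.0476). Taken alone, slim1-1 differed from P by 0.304 (adjusted p = 0.774) and slim1-2 by 0.977 (adjusted p = 0.00724). The call of UGT74B1 was lost under 5 of the other settings and on leaving out any of 11 single arrays, that of GSTU20 without P-S1500 replicate 1. That of UGT74C1 was lost without either P array on S1500, without P-S15 replicate 2, without the first slim1-1 array on S1500 and without the filter, and all 4 calls were lost without normalization between arrays.

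Other repressions that were weaker in the mutant mean came from unlike genes. AT3G14280 fell by 1.35 ± 0.136 (log2) in P and had a difference of 0.995 (adjusted p = 0.00829). ATC (AT2G27550), a relative of the floral regulators CENTRORADIALIS and TERMINAL FLOWER, responded by -1.21 ± 0.195 in P, -0.43 in slim1-1 and 0.37 in slim1-2 (difference 1.18, adjusted p = 0.0324). AT3G57010, a strictosidine synthase-like protein, AT1G26665, a Mediator subunit of the MED10 family, and AT1G73600, a phosphoethanolamine N-methyltransferase, had differences of 0.68, 0.60 and 0.59 (adjusted p = 0.0177, 0.0367 and 0.0209). Leaving out single arrays cost AT1G26665 its call for 10 arrays, ATC for 9, AT1G73600 for 5, AT3G57010 for each of the 4 P arrays and AT3G14280 for 2, P-S1500 replicate 1 and P-S15 replicate 2. With median centring in place of quantile normalization AT1G26665 and AT1G73600 were not called. Taken alone, slim1-1 had no called difference from P for AT3G14280 (0.745), ATC (0.776), AT3G57010 (0.461), AT1G26665 (0.563) or AT1G73600 (0.354). Their limma adjusted p-values were 0.201, 0.52, 0.398, 0.193 and 0.535. Taken alone, slim1-2 was called for all of them but AT1G26665 (adjusted p = 0.059). The lines were not called different from each other for any of them. The unnamed probe sets 252827_at and 264052_at had the differences 1.90 and 1.97.

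**Figure D3:**
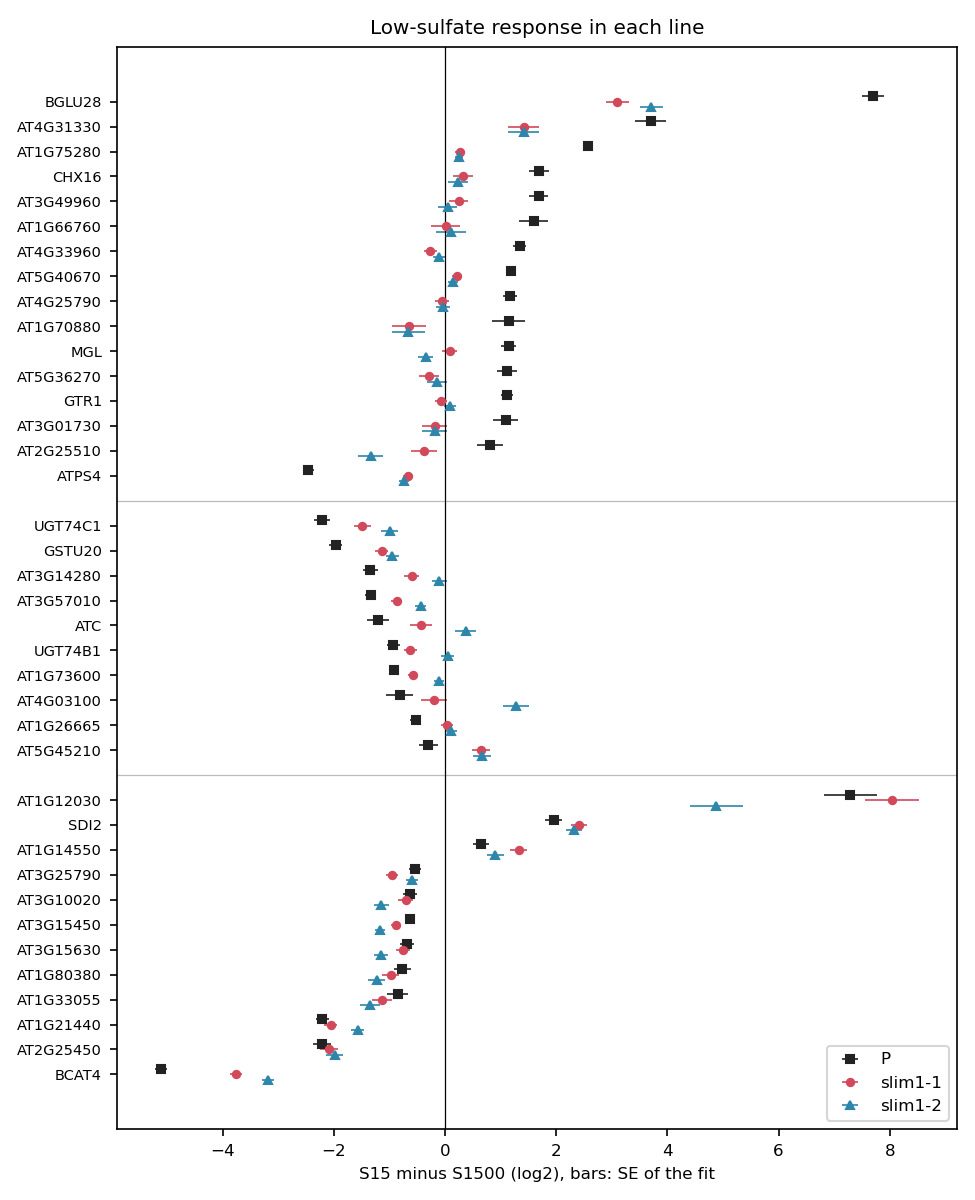
The S15 minus S1500 response (x axis, log2) of each named gene (y axis) is given for P (squares), slim1-1 (circles) and slim1-2 (triangles), with bars for the SE of the fit; the first block holds the most negative differences and the responses kept under 50%, the second the positive differences and the third the responses kept over 50%. In the first block both mutants lie near 0 for most genes that P raised by more than 1, and in the third both follow P.

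Among the responses that persisted in the mutants, SDI2 (AT1G04770, chromosome 1), a widely used marker of sulfur deficiency that acts on glucosinolate synthesis, was raised in all lines. Its log2 signal on S1500 was 8.23 and 7.86 in P, 8.18 and 7.76 in slim1-1 and 8.08 and 7.82 in slim1-2. On S15 it was 10.00 and 9.99 in P, 10.32 and 10.43 in slim1-1 and 10.21 and 10.32 in slim1-2. The groups on S15 lay above all arrays on S1500, and the mutants on S15 lay above P. The responses were 1.95 ± 0.146 in P, 2.41 in slim1-1 and 2.32 in slim1-2, and the difference was 0.41 (95% interval 0.03 to 0.79) with an adjusted p of 0.493. SDI2 was placed over 50% under 21 of 21 other processing settings.

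AT1G12030, a protein of the DUF506 family of unknown function, gave the largest named induction kept over 50%. It read 1.94 and 1.1 in P on S1500 and 8.74 and 8.87 on S15. In slim1-1 it read 1.22 and 2.71 against 10.17 and 9.83, and in slim1-2 4.77 and 3.22 against 9.06 and 8.69. All S1500 arrays of P and slim1-1 were below the control bound, so the induction was at least 31.4-fold in P and at least 64.4-fold in slim1-1 (adjusted p = 2.46e-07 for P). The fitted difference of -0.83 (adjusted p = 0.741) became 0.28 with low signals raised to the bound, so it has no settled sign. Without any 1 of the 6 S15 arrays AT1G12030 failed the filter on low signals. The unnamed probe sets 252269_at and 246884_at rose by 6.34 and 6.12 in P and by 4.51 and 5.21 in the mutant mean. Both were placed over 50%, and their responses still differed from those of P, by -1.82 (adjusted p = 0.0122) and -0.91 (adjusted p = 0.0253). On S1500 the mutants exceeded P by 1.70 (limma adjusted p = 0.00221) and 0.59 (adjusted p = 0.0425). On S15 the mutants minus P gave -0.12 and -0.32, neither of them called.

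Large repressions persisted as well. AT2G25450, a 2-oxoglutarate-dependent dioxygenase, read 10.54 and 10.64 in P on S1500 and 8.47 and 8.27 on S15, and its mutant arrays lay between 9.94 and 10.28 on S1500 and between 7.84 and 8.35 on S15. Its responses were -2.22 ± 0.157 in P, -2.09 in slim1-1 and -1.99 in slim1-2, and the difference was 0.18 (95% interval -0.24 to 0.59; adjusted p = 0.859). AT1G21440, of the phosphoenolpyruvate carboxylase family, responded by -2.21 ± 0.117 in P, -2.06 in slim1-1 and -1.57 in slim1-2, with a difference of 0.39 (95% interval 0.09 to 0.70; adjusted p = 0.369). The media separated without overlap in every line for both genes.

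Smaller repressions kept over 50% were AT3G15450, AT3G15630, AT1G33055, AT1G80380 (glycerate kinase), AT3G10020 and AT3G25790 (HHO1, a GARP family transcription factor), with P responses between -0.86 and -0.54 and mean slim1 responses between -1.24 and -0.78. AT3G15450 read 11.07 and 11.21 in P on S1500 and 10.52 and 10.48 on S15, and the mutant arrays 11.34 to 11.66 against 10.31 to 10.54. Its mutant response of -1.03 ± 0.0614 compared with -0.64 ± 0.0868 in P, but the difference of -0.39 (95% interval -0.62 to -0.16) had an adjusted p of 0.155. None of these 6 differences was called. AT1G14550, a class III peroxidase, rose by 0.65 ± 0.149 in P and by 1.11 ± 0.106 in the mutants (difference 0.46, adjusted p = 0.433). Of these 7 genes AT3G15450 alone was placed over 50% whichever array was left out.

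At 23 probe sets (0.169%) the mutants responded, with a called difference from P, where no P response was called; 7 of these were higher and 16 lower, and 11 carry a gene name. AT5G19120, an aspartyl protease family member, was among the lower ones. It read 9.67 and 9.72 in P on S1500 and 9.66 and 9.74 on S15, with a P response of 0.01 ± 0.0845. In slim1-1 it went from 10.19 and 10.21 to 9.54 and 9.62, and in slim1-2 from 10.14 and 10.23 to 9.23 and 9.41. The mutants were above every P array on S1500 and below every P array on S15, with responses of -0.62 and -0.86 and a difference of -0.75 (95% interval -0.97 to -0.53; adjusted p = 0.00181). On S1500 they exceeded P by 0.50 ± 0.0732 (adjusted p = 0.00403). On S15 they lay at -0.25 ± 0.0732 relative to P, which was not called (adjusted p = 0.105). The count of 23 was 0 without normalization between arrays, 15 without the filter, and 5 without P-S1500 replicate 1.

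AT2G25510 responded by 0.81 ± 0.229 in P (adjusted p = 0.0727), -0.39 in slim1-1 and -1.34 in slim1-2, with a difference of -1.67 (adjusted p = 0.00829). AT1G23205, a pectin methylesterase inhibitor family member, AT2G32150, a haloacid dehalogenase-like hydrolase, and AT5G45210, a TIR-NBS-LRR disease resistance protein, had differences of -0.92, -0.44 and 0.96 (adjusted p = 0.0476, 0.0481 and 0.0473). The calls of AT1G23205 and AT2G32150 were lost on leaving out any 1 of the 12 arrays and that of AT5G45210 on leaving out any of 11, and all 3 were lost with the replicate number as a block. The call of AT2G25510 was lost without P-S1500 replicate 1, and also when P-S15 replicate 2 was left out. Of all 128 called differences, 27 lay at probe sets with no called P response, AT1G70880 (an MLP-like protein; difference -1.80, adjusted p = 0.0331) and AT4G03100 (difference 1.35, adjusted p = 0.0455) among them. The P response of AT1G70880 was 1.14 ± 0.301 with an adjusted p of 0.051, and that of AT4G03100 was -0.82 ± 0.237 with an adjusted p of 0.0798. AT4G03100 differed from P by 0.61 in slim1-1 (adjusted p = 0.785) and 2.09 in slim1-2 (adjusted p = 0.006). Their calls were lost on leaving out any of 8 arrays for AT1G70880 and of 9 for AT4G03100.

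A difference of responses can come from either medium, and it equals the mutants minus P on S15 less the mutants minus P on S1500. The mutants and P differed at 147 probe sets on S1500 (1.08%) and at 296 on S15 (2.17%). For AT1G75280 and GTR1 the mutants lay below P on S15 (-2.22 and -1.14, both called) and had no called difference from P on S1500 (0.10 and -0.04). AT4G25790 was also called on S15 alone (-0.97), but its S1500 mean of 0.24 averaged unlike lines, -0.19 in slim1-1 and 0.67 in slim1-2. In slim1-2 it lay -0.54 from P on S15, less than its distance on S1500. For ATPS4 and AT4G33960 the mutant mean differed from P on both media with opposite signs, in each line as in the mean, and on S1500 lay on the side that P takes on low sulfate. BCAT4 was called on both media too (-0.58 on S1500 and 1.06 on S15), with -0.13 in slim1-1 and -1.04 in slim1-2 on S1500. ATC, AT3G14280, UGT74B1 and AT1G73600 were called on S1500 (-0.77, -0.75, -0.49 and -0.41) and not on S15 (0.405, 0.24, 0.15 and 0.18). For UGT74B1 the S1500 values were -0.19 in slim1-1 and -0.79 in slim1-2. For ATC they were -0.36 in slim1-1 and -1.18 in slim1-2. The count on S1500 was 21 without P-S1500 replicate 1 and 8 without normalization between arrays, and that on S15 was 128 without P-S15 replicate 1 and 25 without normalization.

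**Figure D4:**
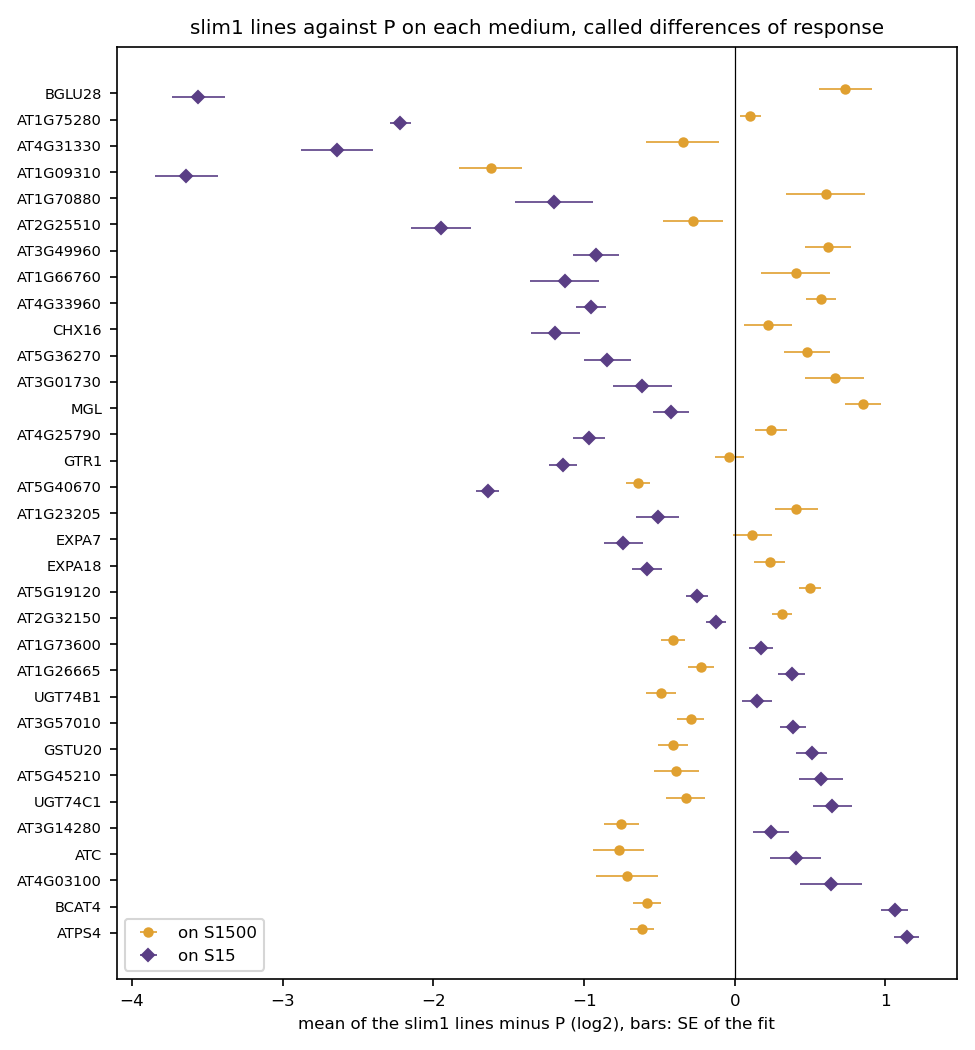
For the 33 named genes with a called difference of responses (y axis), circles give the mean of the slim1 lines minus P on S1500 and diamonds the same on S15 (x axis, log2), with bars for the SE of the fit. AT1G75280 and GTR1 lie near 0 on S1500 and below it on S15, whereas MGL lies further from 0 on S1500 (0.85) than on S15 (-0.42).

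Between the mutant lines, the slim1-2 response differed from the slim1-1 response at 15 probe sets (0.11%), 2 higher and 13 lower, and 2 carry a gene name. At an unadjusted p under 0.05 this contrast gave 734 of the 13647 tested probe sets, against 1247 for the difference of responses. A share of 0.05 passes this threshold where no response differs, so the 734 are no count of unlike responses. The count was 0 without normalization between arrays and between 4 and 14 on leaving out single arrays. Tested alone against P, slim1-1 gave 57 called differences and slim1-2 gave 121.

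AT1G09310, a DUF538 family protein, had the most negative value of the 15 called between the lines. It read 7.87 and 7.41 in P on S1500 and 7.64 and 7.36 on S15. In slim1-2 it went from 7.93 and 7.29 to 3.91 and 3.75, a fall of at least 10.0-fold, and in slim1-1 it was already low on S1500 (4.51 and 4.35) and read 3.98 and 3.81 on S15. The slim1-2 response was therefore below that of slim1-1 by -3.25 (adjusted p = 0.000876), and the mean difference from P, -2.02 (adjusted p = 0.00289), averages 2 unlike lines: -0.39 in slim1-1 and -3.64 in slim1-2. Both slim1-2 arrays and 1 slim1-1 array on S15 were below the control bound. With low signals raised to that bound the lines differed by -2.95 (adjusted p = 0.0144) and the mean difference from P was -1.71 (adjusted p = 0.0365). AT1G09310 failed the filter on low signals without any single P array or either slim1-2 array on S1500, the groups where it was high. Without the filter the mean difference from P stayed called. ChiC (AT4G19810), a class V chitinase, rose by 0.73 in slim1-1 and responded by -0.55 in slim1-2, with 0.53 ± 0.131 in P; the lines differed by -1.28 (adjusted p = 0.0188).

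Shoot markers were examined beside AT1G09310. LHCB4.1, LHCB4.2 and RCA, genes of photosynthesis, are the 3 named of 7 listed, and none was below the control bound on all arrays. Their summed signals were 1310 to 1499 in P and 1334 to 1352 in slim1-2 on S1500, against 790.9 to 843.3 in slim1-1. On S15 they were 1108 to 1118 in P, 704.3 to 797.1 in slim1-1 and 804.3 to 845.3 in slim1-2. LHCB4.2 fell in the mutants, with a mean response of -1.17 ± 0.108 (adjusted p = 9.19e-06) and its P response was -0.42 ± 0.153 (adjusted p = 0.186), with a difference of -0.76 that was not called (adjusted p = 0.0962). RCA, rubisco activase, fell in P (-0.43 ± 0.102) and in the mutant mean (-0.43 ± 0.0723), with a difference of 0.00 (95% interval -0.27 to 0.27). No contrast of LHCB4.1 was called, and its mutants minus P values were -0.107 on S1500 and -0.191 on S15. The sums are of linear signals, so RCA weighs more in them than LHCB4.2 (mean log2 9.71 and 7.54 in P on S1500). The summed markers, like AT1G09310, were low in slim1-1 on both media and in slim1-2 on S15, whereas in P on S15 the sum was lower than on S1500 and AT1G09310 had no called response (-0.14, adjusted p = 0.862). The part of shoot tissue or of its transcripts in the values of AT1G09310 was not tested.

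**Figure D5:**
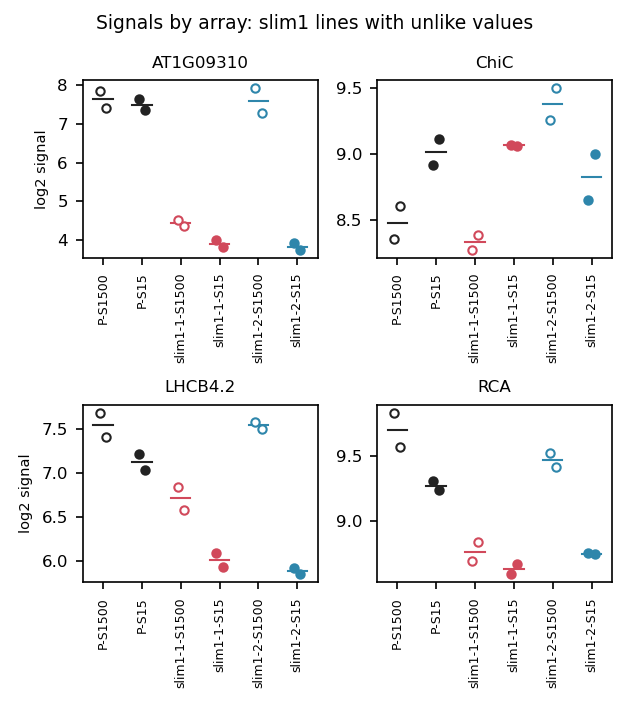
Log2 signal (y axis, own scale per panel) of AT1G09310, ChiC, LHCB4.2 and RCA on the 12 arrays by group (x axis), with open circles for S1500, filled circles for S15 and a line at each mean. On S1500 slim1-1 lies below P and slim1-2 for AT1G09310, LHCB4.2 and RCA, and on S15 the mutants lie close to each other.

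Of 170 genes in 17 lists, 25 are named here and 22 were tested. Methionine metabolism held MGL, CBL, HMT1 and MMT. In P MGL rose and CBL fell (1.78% and 2.06% of all tested probe sets did). CBL fell in the mutant mean (3.17%), and MGL alone had a called difference, a negative one (0.652%). CBL (AT3G57050), cystathionine beta-lyase, which acts in methionine synthesis, responded by -0.56 ± 0.0837 in P and -0.28 ± 0.0592 in the mutants, with a difference of 0.28 (95% interval 0.06 to 0.50; adjusted p = 0.376). No contrast between media or difference of responses was called for PYK10, a root beta-glucosidase, for the ethylene regulator EIN3, or for IAA18. In 6 of the lists, those for sulfate transporters, cysteine and glutathione synthesis, MYB regulators, jasmonate, ethylene response and other nutrients, 0 genes are named here and none was analysed.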

How the data were processed

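Root RNA of the 12 samples was hybridized to Affymetrix arrays. The deposited values are linear signal intensities, 1 per probe set. MAS5 is the program that the submitters' processing notes name for them; for its version and scaling target the entry is "not given in the sources used here". Files hold no probe-level data, so their summaries were not redone. Signals below 1 were set to 1, log2 transformed and quantile normalized. The 64 hybridization controls were left out of the tests, and a probe set was tested if its mean log2 signal over the 12 arrays exceeded the 40th percentile of such means (5.77). One linear model over 6 groups was fitted with limma 3.58.1 in R 4.3.3 (lmFit, eBayes with an intensity trend), with 6 residual degrees of freedom and Benjamini-Hochberg adjustment at 0.05 over the 13647 tested probe sets. Genes were named through the platform annotation, updated to RefSeq (TAIR10.1): 13513 probe sets have 1 gene, 503 several, and 8794 are not listed. Fold bounds ("at least") compare the bright group with the brightest Bacillus control of each array. Array precision is limited by the 2 arrays per group. The script was tested on simulated data. Named genes were the 12 lowest and 12 highest called differences with no overlap between line responses, the 12 largest responses kept over 50% and 8 kept under it, up to 6 responses in mutants and not P, up to 3 in each direction between mutants, called members of gene lists (at most 8 per list), and named sulfur marker genes. The members, lists and rules were chosen with earlier results of these data known.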

Additional observations from a re-analysis of the deposited data

Results flagged for a closer look

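The same contrast, S15 minus S1500, differed between lines by a test of the difference itself (limma, adjusted p under 0.05) at 128 probe sets for the mean of the slim1 lines against P and at 15 probe sets for slim1-2 against slim1-1. Among named genes the mutants' response was below that of P for BGLU28 (-4.29), AT1G75280 (-2.32), AT4G31330 (-2.29), AT1G09310 (-2.02), AT1G70880 (-1.80), AT2G25510 (-1.67), AT3G49960 (-1.54), AT1G66760 (-1.53), AT4G33960 (-1.52), CHX16 (-1.41), AT5G36270 (-1.32), AT3G01730 (-1.28), MGL (-1.27), AT4G25790 (-1.21), GTR1 (-1.10) and AT5G40670 (-1.0). It was below by less than 1 log2 unit for AT1G23205 (-0.92), EXPA7 (-0.86), EXPA18 (-0.81), AT5G19120 (-0.75) and AT2G32150 (-0.44). It was above that of P for ATPS4 (1.75), BCAT4 (1.64), AT4G03100 (1.35), ATC (1.18), AT3G14280 (0.995), UGT74C1 (0.97), AT5G45210 (0.96), GSTU20 (0.92), AT3G57010 (0.68), UGT74B1 (0.64), AT1G26665 (0.60) and AT1G73600 (0.59). The slim1-2 response was below that of slim1-1 for AT1G09310 (-3.25) and ChiC (-1.28).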

How the results depend on the processing

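The counts were recomputed with median centring, no normalization between arrays, no intensity trend, 16 or 64 added to signals, the filter dropped or set at the 60th percentile, a replicate block, low signals raised to the control bound, and 1 array left out at a time; the difference of responses was also taken for each slim1 line alone. Without normalization between arrays the calls were 11 for the difference of responses (128 as reported), 65 for P (524), 57 for the slim1 mean (751), 0 kept under 50% (33), 5 kept over 50% (46), 0 in the mutants and not P (23), 0 between the mutants (15), 8 on S1500 (147) and 25 on S15 (296). Without normalization and without slim1-2-S15 replicate 2, the brightest array, a setting chosen after seeing the data, they were 35, 175, 113, 7, 7, 3, 6, 57 and 60 in the same order. Without the intensity trend they were 83 for the difference, 29 kept over 50%, 4 between the mutants and 64 on S1500. Without the filter they were 15 in the mutants and not P, 5 between the mutants and 69 on S1500, and the 60th percentile filter gave 8 between the mutants. Against P, slim1-1 alone gave 57. Leaving out 1 array gave 58 to 124 differences of response, 270 to 556 P responses, 507 to 710 mean slim1 responses, 22 to 35 kept under 50%, 25 to 52 kept over 50%, 5 to 19 in the mutants and not P, 4 to 14 between the mutants, 21 to 162 on S1500 and 128 to 307 on S15. The replicate block gave 132 differences of response; the deviations of same-numbered arrays correlated at -0.118 to 0.23 over 15 pairs of groups, over 0.1 in 4, so the numbers were not taken to pair arrays. Of the 33 named differences called, 4 (BGLU28, AT1G75280, AT4G31330 and ATPS4) stayed called under every alternative in which they were tested. The call was lost by 29 without normalization, 10 without the filter, 10 without the trend, 4 with median centring and 4 with the block. Direction changed in 0 of them. Most were chosen for no overlap between line responses, and the filter, trend and block settings leave the difference itself unaltered. The unchanged direction was thus largely fixed beforehand. Leaving out 1 array cost none of 13 its call, though for 6 of the 12 arrays AT1G09310 then failed the filter and was not tested. ATPS3 gained a call with a pseudocount of 64. With 2 arrays per group, 445 of 524 P responses could not be placed against 50%.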
